A study of Mus musculus with 13 samples.

Results

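Translation initiation factors are the proteins that bring the initiator tRNA, the mRNA and the ribosomal subunits together at a start codon. They were read here as the genes whose symbol begins with Eif1 to Eif6, leaving out the eIF2 kinases (Eif2ak), the Y-linked Eif2s3y, pseudogenes and Rik symbols, and requiring 10 counts in at least 2 libraries. The rule found 47 genes among the 22997 symbols of the count table. Of 51 matching symbols, 4 stayed under the minimum: Eif3j2 with at most 1.32 CPM (counts scaled to a common library total) in any library, Eif4ebp3 with at most 1.76, Eif4e1b with at most 0.569, and Eif4a3l1 with no count. All 47 genes passed the low-count filter of every test, and 46 of them had 10 or more counts in all 13 libraries. The exception was Eif5a2, the gene nearest the minimum, which reached 10 counts in 6 libraries. None of these was a VQ D1, VQ D4 or tVk12653 library, so Eif5a2 entered only through groups where it was high.

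In initiation, eIF2 carries the initiator tRNA to the small ribosomal subunit as a complex with GTP, and eIF2B recharges eIF2 with GTP afterwards. The many-subunit factor eIF3 holds the small subunit and its partners together, while eIF1, eIF1A and eIF5 govern scanning and recognition of the start codon. The eIF4F complex (the cap-binding protein eIF4E, the scaffold eIF4G and the helicase eIF4A) recruits the mRNA, and 4E-BPs block it by binding eIF4E. MYC is known to raise transcription of many genes of protein synthesis, and myeloma, a cancer of plasma cells, grows from cells that already make large amounts of antibody.

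RNA came from 13 libraries of C57/BL6 mouse bone marrow, each of 50000 cells sorted as CD138+, CD45.2+ and B220-. VQ cells (5 libraries) carried V{kappa}*MYC, a human MYC transgene that becomes active in germinal centre B cells, together with Nras LSL Q61R/+, an oncogenic Nras allele unlocked by Cre, and IgG1-Cre, a recombinase expressed from the IgG1 locus. They were collected from recipients of 3 donor lines, D1 (2 libraries), D4 (1) and D5 (2). The 2 tVk12653 libraries came from recipients of 1 transplantable V{kappa}*MYC line, the 3 V libraries from V{kappa}*MYC; IgG1-Cre mice, and the 3 WT libraries from wild-type mice. VQ and tVk12653 cells were transplanted and V and WT cells were not, and between these sets the effects of transplantation and genotype cannot be told apart. Sex and age were not given in the labels used here, nor was it stated whether replicates of V and WT were separate animals, so p-values measure the spread between these samples.

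Library totals ran between 2096815 and 8512281 counts, and 3 counts, the floor used for a gene at 0, correspond to 0.326 to 1.48 CPM. Plasma cell markers were all detected in every library (7 of 7), with summed levels of 5219 to 7943 CPM in VQ, 8368 to 12102 CPM in tVk12653, 41622 to 62517 CPM in V, while WT had 37864 to 70890 CPM. Most of that difference was Jchain, the joining chain of secreted antibody, with 44.5 to 1509 CPM in VQ and 3995 and 6739.5 CPM in tVk12653, against at least 34857 CPM in V and 33543 CPM in WT. Without it the sums of the other 6 markers in VQ and in tVk12653 overlapped the WT range. They were 4025 to 7898 CPM in VQ and 4373 and 5362 CPM in tVk12653. V had 6581 to 7327 CPM and WT 4321 to 7214 CPM. Single markers did not all follow the sum. Mzb1 had 155 and 127 CPM in VQ line D1, 0.562 in D4, and 384 and 334 in D5. It had 6.70 and 7.24 CPM in tVk12653, against 275 to 363 CPM in WT. Tnfrsf17 had 2.82 to 83.6 CPM in VQ and 20.6 and 23.9 CPM in tVk12653, against 82.9 to 149 CPM in WT. Irf4 was above the WT range of 941 to 1782 CPM in D1 and D4, with 2264 to 2417 CPM. Xbp1 had 1330 to 1894 CPM in D1 and D5 and 1799 and 1742 CPM in tVk12653. D4 had 3390 CPM of it and WT 1963 to 3308 CPM. Sdc1 had 365 and 422 CPM in D5 and 843 to 1427 CPM in D1 and D4. It had 530 and 1044 CPM in tVk12653, against 676 to 1005 CPM in WT. Prdm1 had 215 CPM in both D5 libraries, 433 and 234 in D1 and 631 in D4. It had 503 and 705 CPM in tVk12653, against 383 to 677 CPM in WT. The summed level of 10 neutrophil markers was 71.4 to 1246 CPM in VQ, 90.2 to 156 CPM in tVk12653, 1833 to 3677 CPM in V, while WT had 3389 to 9318 CPM. The 9 erythroid markers in the table summed to 5.37 to 22.6 CPM in VQ, 11.1 to 13.8 CPM in tVk12653, 13.3 to 35.7 CPM in V, while WT had 123 to 793 CPM. B cell markers (5) summed to at most 7.15 CPM in VQ and 0.925 CPM in tVk12653, against at least 381 CPM in V and at least 356 CPM in WT, and T and NK markers (6) to at most 3.77 CPM in VQ and 0.925 CPM in tVk12653, against at least 34.0 CPM in V and 48.2 CPM in WT. Monocyte markers (5) summed to 372 to 2649 CPM in VQ, 2200 to 3146 CPM in tVk12653, 1638 to 2419 CPM in V and 1531 to 2502 CPM in WT, but Ly6c2 and Ctss made up nearly all of the sum in the tumours. Lyz2, the lysozyme of monocytes, macrophages and neutrophils, had 3.44 to 60.8 CPM in VQ and 3.98 to 7.17 CPM in tVk12653, against 173 to 324 CPM in V and 326 to 1332 CPM in WT. Csf1r and Ccr2 were each under 4 CPM in every tumour library. WT replicate 2 had the highest neutrophil sum of all libraries and VQ D1 replicate 1 the highest among VQ. The part of these other cell types in the results below was not tested, and in bulk RNA fewer cells of a type and less RNA per cell cannot be told apart. Myc itself averaged 1251 CPM in VQ, 8100 CPM in tVk12653, 367 CPM in V and, in WT, 52.9 CPM. These are counts of the mouse gene symbol on the mouse genome, and the share of human transgene RNA in them was not tested.

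The promoters of several of these genes hold the letters CACGTG, the E-box that MYC and its partner MAX bind. RefSeq promoter windows of GRCm38.p6 (250 bases before to 50 after a start) were matched for 38 of the 47 genes, and CACGTG, which reads the same on both strands, lay in 12 of their 50 windows (24%). It lay in 10.1% of the windows of all genes tested and in 7.15% of all windows. The letters CACGCG, searched on both strands, lay in 20% of the initiation factor windows, 17% of windows of all genes tested and 9.27% of all windows. The stretches around CACGTG (capitals) are shown, 5′ to 3′ along the gene's strand, for 4 genes that rose in VQ and for Eif3f, a core eIF3 subunit that did not pass the test there.
Eif5a: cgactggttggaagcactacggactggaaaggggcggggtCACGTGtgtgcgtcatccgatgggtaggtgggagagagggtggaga
Eif4a1: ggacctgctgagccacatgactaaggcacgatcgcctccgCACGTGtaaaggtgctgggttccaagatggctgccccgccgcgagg
Eif4g1: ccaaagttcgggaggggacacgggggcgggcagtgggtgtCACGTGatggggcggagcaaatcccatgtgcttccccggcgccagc
Eif3k: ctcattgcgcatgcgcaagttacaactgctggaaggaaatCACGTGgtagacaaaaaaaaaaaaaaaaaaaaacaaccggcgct
Eif3f: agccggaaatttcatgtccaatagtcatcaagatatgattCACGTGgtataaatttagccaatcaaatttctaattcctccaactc
These lie at chr11:69921415-69921500 (minus strand) for Eif5a, chr11:69672567-69672652 (minus strand) for Eif4a1, chr16:20672633-20672718 (plus strand) for Eif4g1, chr7:28981889-28981972 (minus strand) for Eif3k and chr7:108934307-108934392 (plus strand) for Eif3f, and none overlaps an exon of its own gene in GENCODE M21. The RefSeq span of Eif3k ends at 28981890, just inside its stretch, and that of Eif5a (69916712 to 69921958) holds its whole stretch. Of the 10 genes with CACGTG in a window, 5 rose in VQ against WT (50%), and of the 28 with windows that lack it, 16 rose (57.1%). Of all genes tested 17.3% rose. The 9 initiation factors without a window are in neither count, and the test is described below.

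Initiation factors made up a larger share of all counts in the transplanted tumours than in the other plasma cells. Their summed share was 1.28% and 1.30% in the D1 libraries, 1.40% in D4 and 1.59% and 1.66% in D5. It was 1.29% and 1.18% in tVk12653, 0.962%, 1.04% and 1.02% in V, and 0.934%, 0.933% and 0.959% in WT. Every VQ and tVk12653 library was above every V and WT library, and the V libraries were each above all 3 WT libraries. The heat map shows the 47 genes one by one, and 31 of them were above the WT mean in all 3 VQ lines.

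**Figure D1:**
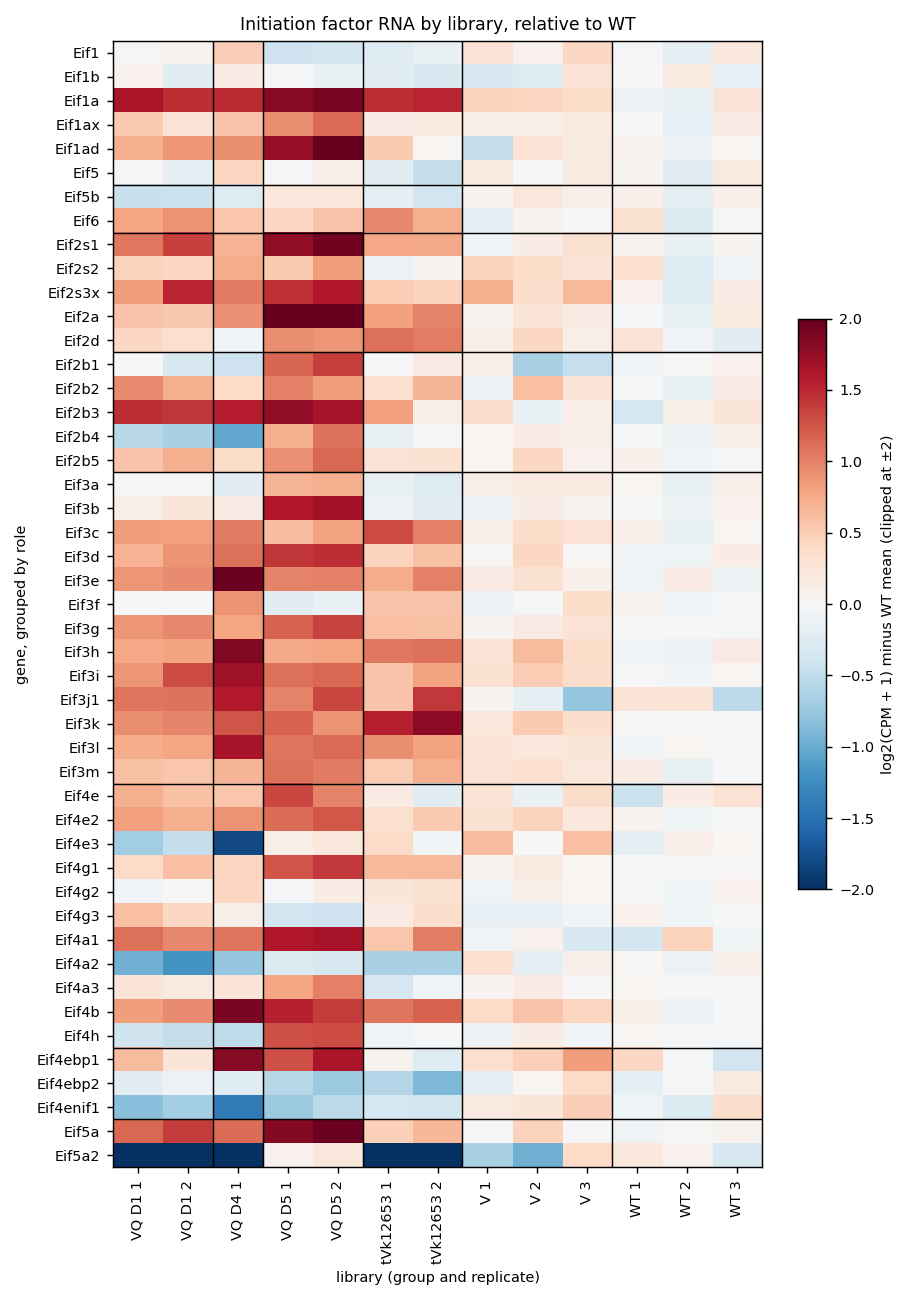
Each cell is log2(CPM + 1) of a gene (rows, grouped by role) in a library (columns), minus the mean of the 3 WT libraries and clipped at 2 log2 units either way. Red (higher than WT) fills most rows of VQ and fewer of tVk12653, and Eif5a2 is dark blue in D1, D4 and tVk12653.

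Levels differed widely between genes when set per kilobase of exon. In VQ libraries Eif5a had the highest mean, 338 CPM per kb, against 117 CPM per kb in WT. The next was Eif3f with 327 CPM per kb in VQ, which in WT led the list at 291 CPM per kb. At the low end, Eif5a2 had 0.42 CPM per kb in VQ and 0.894 in WT, and Eif3j1, a loosely bound eIF3 subunit, had 3.86 in VQ and 1.60 in WT. Eif4e, the cap-binding protein, had 5.16 CPM per kb in VQ and 2.82 in WT, far under the scaffold Eif4g1 with 173 CPM per kb in VQ and 93.5 in WT. Eif4e, Eif4a1, Eif1a, Eif1ax, Eif2s3x and Eif3j1 have close copies elsewhere in the genome. How reads with several alignments were counted was not given in the sources used here, so the levels of these genes are uncertain.

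VQ against WT asks how MYC with mutant Nras tumour cells differ from normal plasma cells. With edgeR's quasi-likelihood test and Benjamini-Hochberg adjustment over all 11933 genes tested, 28 of the 47 initiation factors rose in VQ (59.6%) and 1 fell, at an adjusted p under 0.05. Among all genes tested, 17.3% rose and 15.1% fell, 32.4% together. The median log2 fold change was 0.85 over the initiation factors and 0.08 over all genes. Every VQ library lay above every WT library for 29 initiation factors and below for 2, against 17.7% and 20.8% of all genes.

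Of the 13 eIF3 subunits 10 rose and none fell, with a median log2 change of 1.15. Those that passed were Eif3i (1.42), Eif3e (1.42), Eif3j1 (1.39), Eif3h (1.28), Eif3l (1.27), Eif3d (1.21), Eif3k (1.15), Eif3g (1.08), Eif3c (0.92) and Eif3m (0.85). Eif3k, a peripheral subunit, had 168 and 174 CPM in VQ line D1, 211 in D4, and 201 and 165 in the D5 pair, against 89.4, 87.0 and 87.3 CPM in WT. All 5 VQ values lay well above all WT values, and the log2 change was 1.15 with a standard error of 0.14 (adjusted p = 0.000526 in edgeR's test). Eif3c, a core subunit that contacts eIF1 and eIF5, had 859 and 849 CPM in VQ line D1, 986 in D4, and 732 and 839 in the D5 pair, against 515, 432 and 494 CPM in WT. Eif3h, a peripheral subunit, had 209 and 213 CPM in VQ line D1, 442 in D4, and 205 and 209.8 in the D5 pair, against 117, 112 and 137 CPM in WT. For both the groups were apart, and D4 was the highest library. The 3 subunits that did not pass were Eif3a and Eif3b, the scaffold pair of the complex, and Eif3f. Eif3a had 1070.0 to 2078 CPM in VQ and 1131 to 1349.5 CPM in WT, and Eif3f had 716 to 1570.2 CPM in VQ and 813 to 883 CPM in WT. Eif3b did not overlap WT, with 272 to 295 CPM in D1 and D4 and 763 and 805 CPM in D5, against 233 to 267 CPM in WT.

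**Figure D2:**
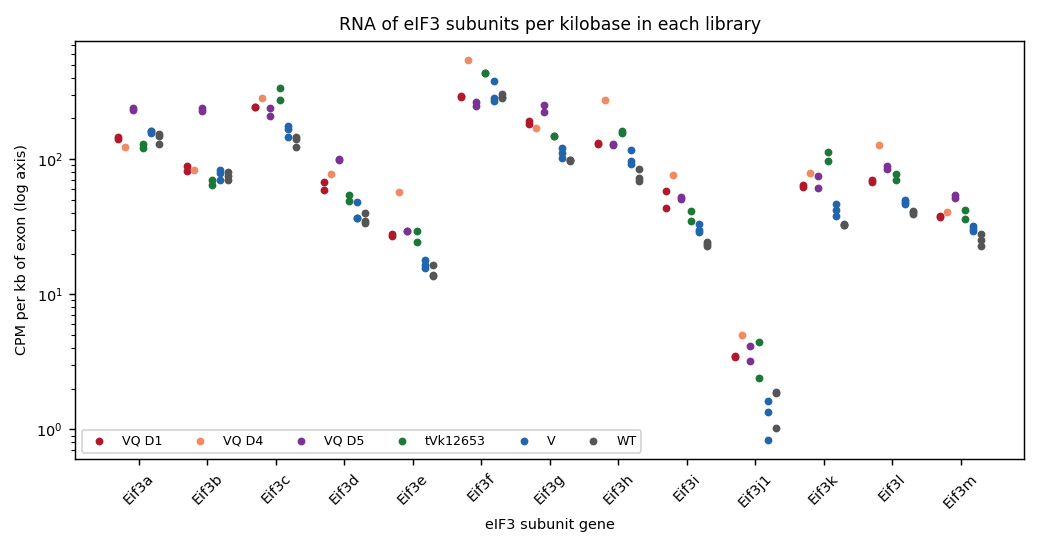
Points are libraries, coloured by group, with each eIF3 subunit on the horizontal axis and CPM per kilobase of exon on a log vertical axis. Most subunits run higher in VQ and tVk12653 than in V and WT, Eif3a and Eif3b stand furthest above WT in D5, and Eif3e, Eif3h, Eif3l and Eif3f are highest in D4.

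Of the factors that deliver the initiator tRNA, 4 of 5 rose. Eif2a encodes eIF2A, a stand-alone initiator tRNA factor that is not a subunit of eIF2. It had 75.1 and 73.9 CPM in VQ line D1, 96.4 in D4, and 367 and 346 in the D5 pair, against 48.9, 45.7 and 57.4 CPM in WT. Its log2 change, 1.87 with a standard error of 0.52 (adjusted p = 0.0213, edgeR), was the largest of the 47 in this fit, and the D5 libraries stood far above the other VQ libraries. Without line D5 its log2 change was 0.75 (adjusted p = 0.00697, edgeR), and it passed in 14 of 19 alternative settings, not passing when any 1 WT library was left out. Eif2s1 encodes eIF2 alpha, the subunit whose phosphorylation shuts down initiation in the integrated stress response. It had 102 and 126 CPM in VQ line D1, 78.8 in D4, and 168 and 187 in the D5 pair, against 51.1, 44.2 and 50.03 CPM in WT, with no overlap and a log2 change of 1.44 (standard error 0.28, adjusted p = 0.00442, edgeR). The beta subunit Eif2s2 rose by 0.66 and the gamma subunit Eif2s3x by 1.45 on the log2 scale. Eif2s3y, the Y-linked copy of Eif2s3x, had at most 0.702 CPM in VQ, 0.724 CPM in tVk12653 and 0 in V, against 17.3, 56.0 and 53.4 CPM in WT. Its part in the difference of Eif2s3x was not tested. Sex was not given, so a difference in sex cannot be told apart from genotype in any comparison against WT, that of V included.

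Of the eIF2B subunits, 3 of 5 rose. Eif2b3, the gamma subunit, had 38.8 and 37.7 CPM in VQ line D1, 41.6 in D4, and 47.7 and 43.7 in the D5 pair, against 10.2, 14.4 and 15.9 CPM in WT. These 5 VQ values lay close together and above all WT values, and the log2 change was 1.68 (standard error 0.28, adjusted p = 0.00204, edgeR). The beta subunit Eif2b2 (0.80) and the catalytic epsilon subunit Eif2b5 (0.78) also rose. The regulatory subunits Eif2b1 (alpha) and Eif2b4 (delta) did not pass. Eif2b1 had 14.5 to 52.7 CPM in VQ and 18.3 to 20.8 CPM in WT, and Eif2b4 had 19.4 to 87.9 CPM in VQ and 38.0 to 43.8 CPM in WT.

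Of the 6 genes grouped with the scanning factors 3 rose: Eif1a, Eif1ax and Eif1ad. Eif1ad was matched by its symbol, and a part of it in scanning was not tested. Eif1a encodes eIF1A, which with eIF1 keeps the small subunit open for scanning. It had 139 and 125 CPM in VQ line D1, 126 in D4, and 158 and 167 in the D5 pair, against 40.5, 40.2 and 53.2 CPM in WT. All 5 VQ values lay far above the WT range, and the log2 change of 1.70 (standard error 0.18) had an adjusted p of 0.000252, the smallest of the 47 genes in edgeR's test. Its X-linked copy Eif1ax rose less, by 0.75 on the log2 scale. The count of Eif1a over that of Eif1ax was 1.53 to 2.07 in VQ and 2.28 in both tVk12653 libraries, against 1.01 to 1.14 in V and 0.827 to 0.959 in WT. Eif1, Eif1b and Eif5 did not pass. Of the subunit joining pair, Eif6, which keeps the large ribosomal subunit from joining too early, rose by 0.70 and Eif5b, the GTPase that joins the subunits, did not pass.

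Of the cap-binding and helicase genes 5 of 11 rose: Eif4b, Eif4a1, Eif4e2, Eif4g1 and Eif4e. Eif4b encodes a cofactor of the eIF4A helicase. It had 664 and 714 CPM in VQ line D1, 1379.6 in D4, and 1087 and 981 in the D5 pair, against 403, 341 and 373 CPM in WT, a log2 change of 1.53 (standard error 0.22, adjusted p = 0.00101, edgeR) with no overlap. Eif4a1, the main eIF4A helicase of growing cells, had 87.5 and 79.7 CPM in VQ line D1, 85.5 in D4, and 125 and 128 in the D5 pair, against 31.0, 55.7 and 37.8 CPM in WT. It rose by 1.30 (standard error 0.28, adjusted p = 0.00681, edgeR), while its paralogue Eif4a2 had 105 to 198 CPM in VQ and 221 to 258 CPM in WT. The libraries of Eif4a2 did not overlap, but its change in VQ against WT did not pass. The count of Eif4a1 over that of Eif4a2 was 0.611 to 0.762 in VQ and 0.389 and 0.541 in tVk12653, against 0.125 to 0.201 in V and 0.127 to 0.252 in WT. Eif4e had 27.7 and 25.3 CPM in VQ line D1, 24.9 in D4, and 43.2 and 34.0 in the D5 pair, against 11.97, 18.4 and 20.5 CPM in WT. Its log2 change of 0.87 (standard error 0.30) passed narrowly, with an adjusted p of 0.0485 in edgeR's test, and passed in 5 of 19 alternative settings. Eif4g2, a scaffold without the eIF4E site, Eif4g3, Eif4e3, Eif4a3 and Eif4h did not pass.

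The inhibitors of eIF4E moved in opposite directions. Eif4ebp1, the 4E-BP controlled by mTORC1, had 62.4 and 47.1 CPM in VQ line D1, 142 in D4, and 98.8 and 126 in the D5 pair, against 53.2, 39.1 and 30.1 CPM in WT. It rose by 1.37 on the log2 scale (standard error 0.35, adjusted p = 0.0154, edgeR), with 1 D1 library inside the range of WT. Eif4enif1, whose product 4E-T carries eIF4E and represses mRNAs, had 123 and 136 CPM in VQ line D1, 81.6 in D4, and 131 and 150.0 in the D5 pair, against 206, 182 and 281 CPM in WT. In VQ against WT it fell by 0.85 (standard error 0.24, adjusted p = 0.0225, edgeR), and its groups did not overlap. It was the 1 fall in the fit reported here, while 5 initiation factors fell and 26 rose without line D5, 2 fell with relative log expression factors, total counts alone, a minimum count of 30 or DESeq2, and 5 fell with all libraries and 1 mean per group. Eif4ebp2 did not pass.

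Eif5a encodes the hypusine-carrying factor eIF5A, which also helps elongation and termination. It had 615 and 728 CPM in VQ line D1, 599 in D4, and 995 and 1080.4 in the D5 pair, against 265, 277 and 289.7 CPM in WT. Every VQ library was far above the WT range, and the log2 change was 1.55 (standard error 0.24, adjusted p = 0.00141, edgeR). Its paralogue Eif5a2 had 0.269 and 0 CPM in VQ line D1, 0.141 in D4, and 4.77 and 5.37 in the D5 pair, against 5.28, 4.79 and 3.41 CPM in WT. D1 and D4 thus lay under the WT range, 1 D5 library lay inside it and the other slightly above, and Eif5a2 did not pass in VQ against WT. Leaving out WT replicate 3 brought the count of called initiation factors in VQ against WT to 19, and leaving out WT replicate 2 with VQ D1 replicate 1, the libraries with the highest neutrophil sums of their groups, to 21.

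**Figure D3:**
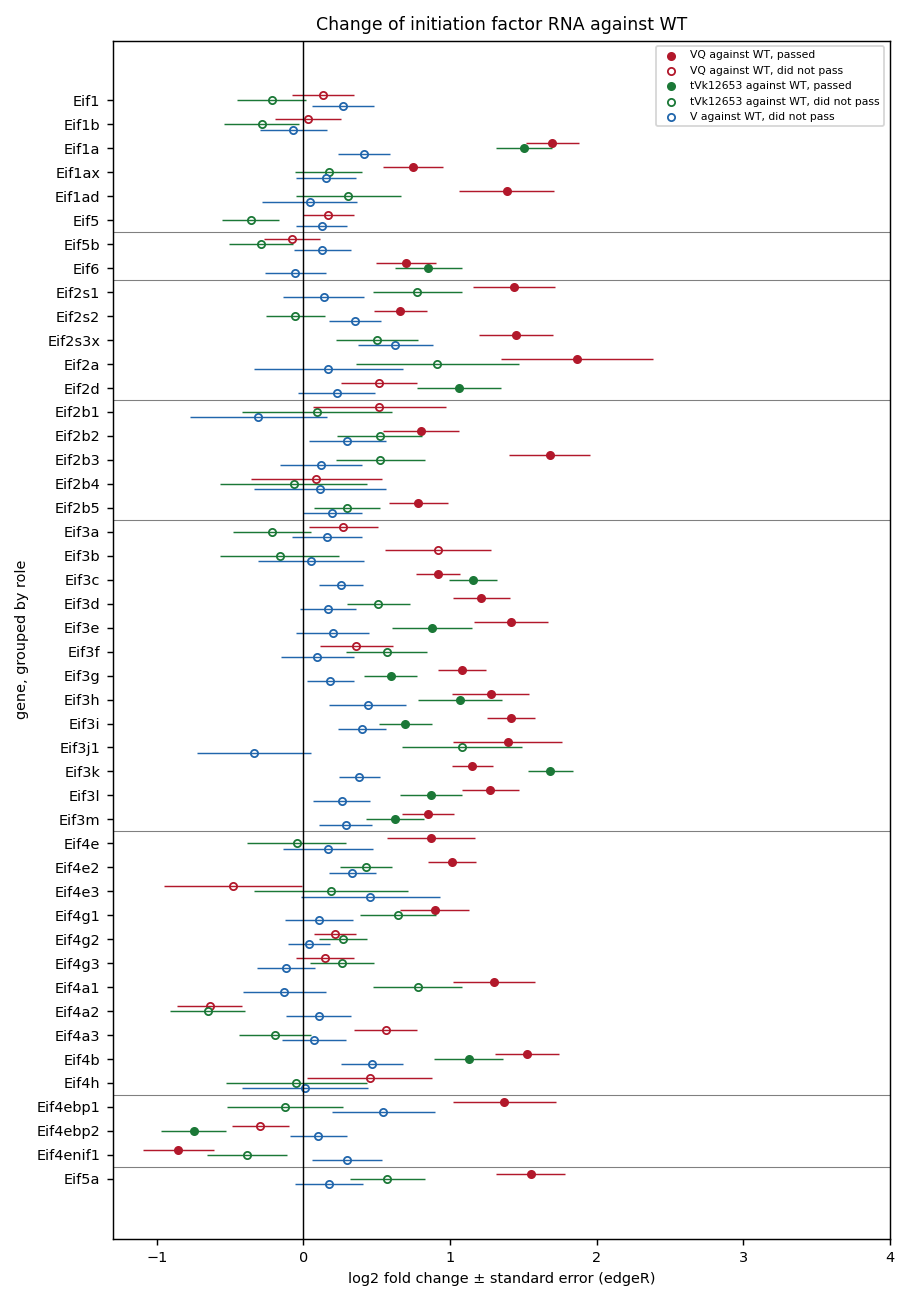
Points are edgeR log2 fold changes against WT with bars of 1 standard error for 46 initiation factors (Eif5a2, with no counts in tVk12653, is left out). Filled points passed at an adjusted p under 0.05: 29 in VQ, 13 in tVk12653 and none in V.

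Against V, which has the MYC transgene and Cre but not the Nras allele, VQ cells had 22 initiation factors higher and 2 lower by edgeR's test. Of all genes tested 15.6% were higher and 12.4% lower in VQ (28.0% together), and the median log2 change was 0.68 over the initiation factors and 0.08 over all genes. The eIF3 complex again had 10 of 13 subunits higher. The largest rises were those of Eif3j1 (1.73), Eif2a (1.70, but 0.57 without line D5), Eif2b3 (1.56), Eif4a1 (1.43) and Eif5a (1.38). Eif4enif1 fell by 1.15 and Eif4a2 by 0.74. Every VQ library lay above every V library for 25 initiation factors and below for 2, against 17.1% and 18.8% of all genes. Without line D5, 20 were higher and 7 lower, with a median of 0.41, and leaving out V replicate 1 brought the 24 calls to 15.

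The tVk12653 line, which carries the MYC transgene and came from recipients of 1 line, was set against WT and V in the same fit. Its 2 recipients entered as 2 units although they share 1 line, while recipients of a VQ line were summed. The p-values of tVk12653 therefore do not measure a spread between tumour lines. Against WT, 12 initiation factors rose (25.5%) and 1 fell by edgeR's test, where 12.6% of all genes rose and 15.7% fell (28.2% together). The median log2 change was 0.43 over the initiation factors and -0.05 over all genes. Both tVk12653 libraries lay above all WT libraries for 26 initiation factors and below for 9, against 32.2% and 35.0% of all genes. Of the 12 that rose, 8 were eIF3 subunits: Eif3k (1.68), Eif3c (1.16), Eif3h (1.07), Eif3e (0.88), Eif3l (0.87), Eif3i (0.70), Eif3m (0.63) and Eif3g (0.59). The others were Eif1a (1.51), Eif4b (1.13), Eif2d (1.06), which can deliver initiator tRNA without GTP, and Eif6 (0.85). No eIF2B subunit and no eIF2 subunit passed.

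Eif3k had 259 and 306 CPM in tVk12653 against 89.4, 87.0 and 87.3 CPM in WT, the smallest adjusted p of the set (0.000187, edgeR). Eif1a had 126 and 129 CPM in tVk12653, inside the range of VQ, against 40.5, 40.2 and 53.2 CPM in WT. Eif3c had 1184 and 964 CPM in tVk12653, against 515, 432 and 494 CPM in WT. In each of these 3 genes both tVk12653 libraries lay above all WT libraries. Eif4b had 781 and 847 CPM in tVk12653 and 341 to 403 CPM in WT, and Eif3h had 252 and 258 CPM in tVk12653 and 112 to 137 CPM in WT.

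Eif4ebp2, a 4E-BP paralogue, was the gene that fell in tVk12653. It had 98.9 and 79.0 CPM in tVk12653 against 131, 149 and 168 CPM in WT, a log2 change of -0.75 (standard error 0.22, adjusted p = 0.0318, edgeR) with no overlap. Eif4ebp1 had 41.6 and 33.0 CPM in tVk12653, inside the WT range of 30.1 to 53.2 CPM, with a log2 change of -0.13 (standard error 0.39, adjusted p = 0.841, edgeR). Eif4e had 18.7 and 14.1 CPM in tVk12653, also inside the WT range of 11.97 to 20.5 CPM, with a log2 change of -0.05 (standard error 0.34, adjusted p = 0.937, edgeR).

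Eif5a had 384 and 439.7 CPM in tVk12653, above all WT libraries, with a log2 change of 0.57 (standard error 0.26) that did not pass (adjusted p = 0.123, edgeR). Eif4a1 had 59.9 and 82.9 CPM in tVk12653 and a log2 change of 0.78 (standard error 0.30, adjusted p = 0.0814, edgeR). Eif2s1 had 83.7 and 82.6 CPM in tVk12653 and a log2 change of 0.78 (standard error 0.30, adjusted p = 0.0824, edgeR). All 3 genes lay above the WT range in both libraries without passing the test. Eif5a2 had no count in either tVk12653 library, which made it at least 5.05-fold lower than in WT and at least 3.90-fold lower than in V against a floor of 3 counts per library, and it did not pass either test. It met the count minimum for entry only through other groups.

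**Figure D4:**
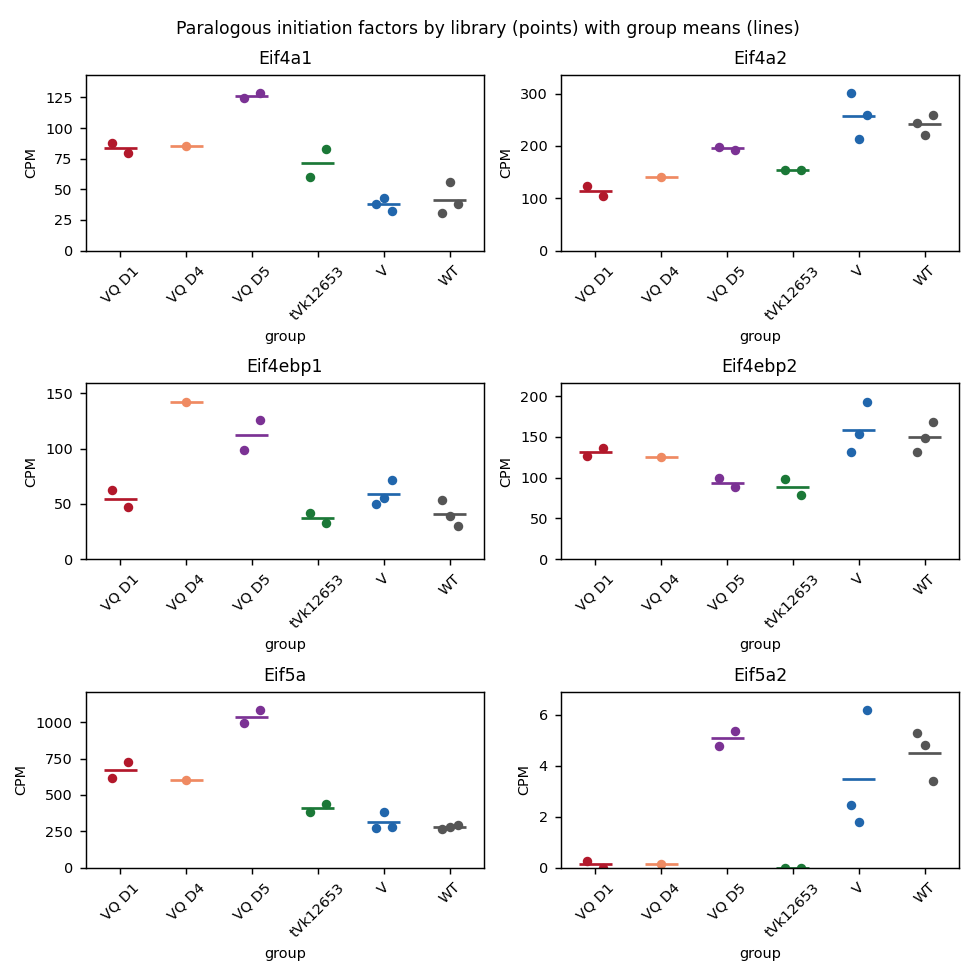
CPM per library (points) and group means (lines) on linear axes for 3 pairs of paralogues. Eif4a1 and Eif5a are higher in VQ than in V and WT, Eif4a2 and Eif4ebp2 are lower in tVk12653 than in WT, and Eif5a2 is at or near 0 in D1, D4 and tVk12653.

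Against V, tVk12653 had 5 of the 47 initiation factors higher and 1 lower by edgeR's test, where 10.3% of all genes were higher and 12.9% lower (23.2% together). The share higher was thus near that of all genes, and the share called in either direction was under it. Both tVk12653 libraries lay above all V libraries for 22 initiation factors and below for 13, against 32.0% and 34.3% of all genes. The 5 that rose were Eif3j1 (1.42), Eif3k (1.30), Eif1a (1.09), Eif6 (0.91) and Eif3c (0.90), and Eif4ebp2 fell by 0.85. The recipients of tVk12653 share 1 tumour line: with their counts summed into 1 unit, 3 initiation factors passed against WT and 3 against V. With any 1 library of WT or tVk12653 left out, 3 to 8 passed against WT, and 2 to 3 passed against V without V replicate 3 or either tVk12653 library.

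Set directly against tVk12653, VQ had 4 of the 47 initiation factors higher and none lower by edgeR's test, where 5.97% of all genes were higher and 4.19% lower (10.2% together). The share called in either direction was not above that of all genes. Every VQ library lay above both tVk12653 libraries for 16 initiation factors and below for 3, against 16.4% and 16.7% of all genes. Eif4ebp1 rose by 1.499 (standard error 0.41), Eif2b3 by 1.16 (0.31), Eif5a by 0.98 (0.27) and Eif3i by 0.72 (0.18) on the log2 scale. All VQ libraries of these 4 genes lay above both tVk12653 libraries. The median log2 difference was 0.46 over the initiation factors and 0.18 over all genes. None of the 4 passed with relative log expression factors, with either tVk12653 library left out, or with the tVk12653 recipients summed, while 11 initiation factors passed without D4 (10 higher, 1 lower) and 9 without line D1 (all higher). Without line D5, 1 was higher and 3 were lower, and 1 of these 4 calls was among the 4 above.

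V against WT asks what the MYC transgene and Cre went with in cells that were not transplanted. No initiation factor passed and no gene of all 11933 did in edgeR's test (0% called in either direction). At an unadjusted p under 0.05 there were 4 initiation factors and 628 genes, and DESeq2 called no initiation factor and 45 genes. The log2 differences were positive for 40 of 47 initiation factors, with a median of 0.17, while the median over all genes was 0.01. In 12 initiation factors (25.5%) every V library lay above every WT library, and in none did every V library lie below. The shares of all genes were 8.97% above and 9.46% below. The 12 were Eif1a, Eif2s3x, Eif3a, Eif3g, Eif3h, Eif3i, Eif3k, Eif3l, Eif3m, Eif4b, Eif4e2 and Eif4g1.

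Eif1a, for example, had 60.7, 59.8 and 57.1 CPM in V against 40.5, 40.2 and 53.2 CPM in WT. Eif4b had 484, 554 and 500.1 CPM in V against 403, 341 and 373 CPM in WT. Both lay between WT and the tumours. Eif5a had 273, 383 and 277 CPM in V against 265, 277 and 289.7 CPM in WT, with overlap and a log2 difference of 0.18 (standard error 0.23). The log2 differences of Eif4ebp1 (0.54, standard error 0.35), Eif4e (0.17, 0.30), Eif2s1 (0.14, 0.28) and Eif4a1 (-0.13, 0.28) did not pass either, and their libraries overlapped. Because same-numbered libraries of V and WT deviated together, these 6 were also fitted by themselves with a block for the number, which called 479 of 10510 genes (4.56%), against 2 genes (0.0190%) without the block, and no initiation factor in either.

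The 3 VQ lines differed from each other. Relative to the WT mean, the median log2 difference of the initiation factors was 0.61 in D1, 0.58 in D4 and 1.14 in D5, beside 0.04, 0.00 and -0.00 over all genes. In 31 of 47 (66%) all 3 lines lay above the WT mean, against 30.4% of all genes. D5 was the highest line in 30 of 47 (63.8%), against 39.3% of all genes, and D1 in 3. The highest 14 in D4 included Eif4ebp1 and the chromosome 15 genes Eif3e, Eif3h, Eif3l and Eif4b.

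D1 and D5 each had 2 recipients, and a fit of the 13 libraries set 1 line against the other. By edgeR's test 26 initiation factors were lower in D1 than in D5 and 3 were higher, where 21.7% of the 12835 genes tested were lower and 20.0% higher (41.7% together). Both D1 libraries lay above both D5 libraries for 6 initiation factors and below for 31, against 38.8% and 35.9% of all genes. The median log2 difference, D1 over D5, was -0.42 over the initiation factors and 0.05 over all genes. By role, 8 of 11 cap-binding and helicase genes were lower in D1, 6 of 13 eIF3 subunits, 3 of 5 initiator tRNA factors, 3 of 5 eIF2B subunits and both eIF5A genes. The test speaks of these 2 lines alone, and it called 19 and 17 genes without the first or second D1 library and 18 without the second D5 library.

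The largest differences were those of Eif5a2, Eif2a, Eif4h and Eif2b4. Eif5a2 had 1 count in the 2 D1 libraries together and 39 in D5, a ratio of 0.0153 with a 95% counting interval of 0.000377 to 0.0901 (exact Clopper-Pearson). It met the count minimum for entry through D5, WT and V libraries and not through D1, so its low level in D1 is no separate support. Eif2a had 75.1 and 73.9 CPM in D1 against 367 and 346 CPM in D5, a log2 difference of -2.26 (standard error 0.14, adjusted p = 4.4e-08, edgeR). Eif4h, which like eIF4B assists eIF4A, had 128 and 121 CPM in D1 against 414 and 417 CPM in D5 (-1.74, standard error 0.13, adjusted p = 1.49e-07, edgeR). D1 was below the WT range of 166 to 173 CPM for Eif4h and D5 above it. Eif2b4 had 27.5 and 25.6 CPM in D1 against 68.4 and 87.9 CPM in D5 (-1.56, standard error 0.18, adjusted p = 9.49e-06, edgeR), and here too D1 lay under and D5 over the WT range.

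The 3 genes higher in D1 were Eif4g3, Eif4ebp2 and Eif1. Eif4g3, a paralogue of the scaffold Eif4g1, had 549.6 and 480.4 CPM in D1 against 276 and 270.4 CPM in D5 (0.91, standard error 0.13, adjusted p = 6.78e-05, edgeR). Eif4g1 ran the other way, with 893 and 1039.6 CPM in D1 against 1634 and 1811 CPM in D5. Eif4ebp2 had 127 and 137 CPM in D1 against 99.6 and 88.2 CPM in D5 (0.49), and Eif1 had 99.3 and 102 CPM in D1 against 73.4 and 75.9 CPM in D5 (0.43). Neutrophil markers also differed, 6 of 10 being higher in D1 and none lower, against 20.0% and 21.7% of all genes. Their sums were 1246 and 360.0 CPM in D1 against 90.4 and 141 CPM in D5. The part of these markers in the differences between D1 and D5 was not tested. Eif1 and Eif4ebp2 did not pass with relative log expression factors.

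Some chromosomes differed from WT as a whole in some lines. Over all tested genes, the median log2 difference from WT on chromosome 5 was -0.79 in D1 and -0.91 in D4 but 0.03 in D5. The chromosome 5 initiation factors Eif2b1, Eif2b4, Eif3b and Eif4h were lower in D1 than D5 by 1.56, 1.61, 1.48 and 1.79 log2 units. These are plain differences in log2 CPM with the recipients of each line summed. The chromosome's genes were lower by a median of 0.86, although in D1 Eif3b itself was 0.27 above WT. On chromosome 3 the median difference from WT was 0.52 in D5, and Eif2a was 2.91, Eif4e 1.30 and Eif5a2 0.27 above WT there. On chromosome 15 it was 0.71 in D4, where Eif3e, Eif3h, Eif3l, Eif4b and Eif3d were 1.96, 1.86, 1.66, 1.89 and 1.11 above WT. On chromosome 7 it was 0.74 in tVk12653, where Eif3k was 1.67, Eif3c 1.16, Eif3f 0.57 and Eif4g2 0.27 above WT. Chromosome 8, which holds Eif4ebp1, had -0.72 in D1 and -0.79 in tVk12653, while Eif4ebp1 itself had 0.43 in D1 and -0.10 in tVk12653. The part of these chromosome-wide shifts in the results was not tested.

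**Figure D5:**
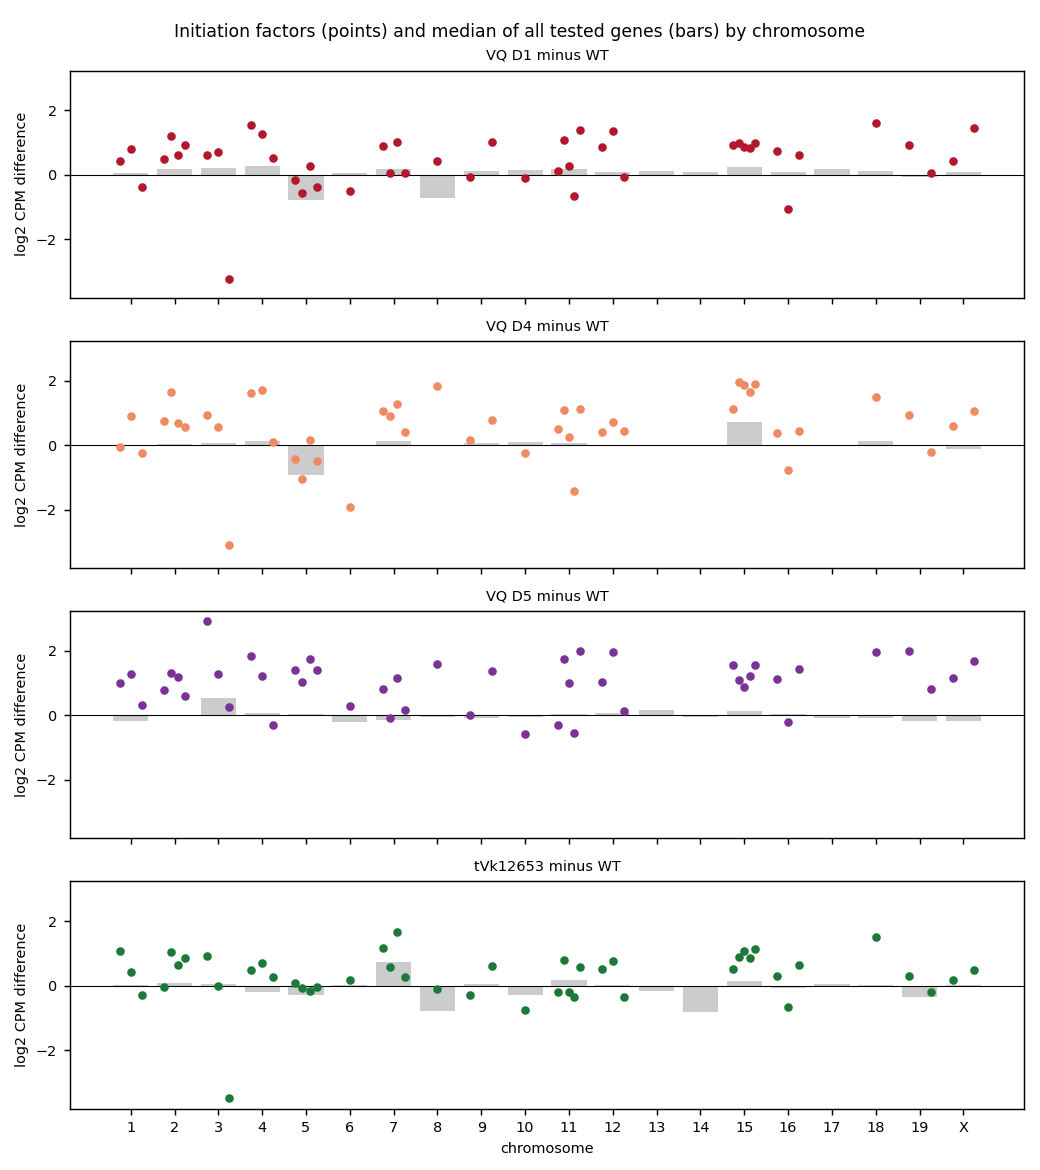
Each panel gives, by chromosome, the initiation factors (points) and the median of all tested genes (grey bars) as a log2 CPM difference from WT in D1, D4, D5 or tVk12653. The bars depart from 0 on chromosome 5 in D1 and D4, 8 in D1 and tVk12653, 15 in D4, 3 in D5, and 7 and 14 in tVk12653.

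Other genes of the translation pathway were read from lists. Of all genes tested, 17.3% rose and 15.1% fell in VQ against WT, and 12.6% rose and 15.7% fell in tVk12653 against WT. The list for elongation and termination held 9 genes by symbol, the eEF2 kinase Eef2k included. Of these, 8 rose in VQ against WT and none fell. Eef1b2 (2.37), Eef2 (1.69) and Eef1e1 (1.64) were among the 8, and 4 rose in tVk12653, led by Eef1b2 (2.03). Of 12 binding partners of initiation 5 rose in VQ, with the poly(A)-binding proteins Pabpc1 (1.64) and Pabpc4 (1.16) and the reinitiation factor Mcts1 (0.97) the largest. Pdcd4, an inhibitor of eIF4A, fell by 0.79 in VQ and by 1.15 in tVk12653. The 12 mTORC1 and MNK genes gave 1 rise in VQ, that of Larp1 (0.85), and in tVk12653 a rise of Akt1s1 (1.48) and a fall of Mtor (-0.50).

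The eIF2 kinases and phosphatase subunits (6 genes) showed no rise in VQ, and Ppp1r15a, the stress-induced phosphatase subunit GADD34, fell by 1.55. In tVk12653 the double-stranded RNA kinase Eif2ak2 fell by 1.82. Neither hypusine enzyme, Dhps or Dohh, passed in VQ or tVk12653 against WT, while Dhps was lower in D1 than in D5 by 1.39. Between D1 and D5, 7 of the 9 genes listed under elongation and termination were lower in D1, against 21.7% of all genes tested. The eEF2 kinase Eef2k was lowest (-5.97). All of these values are edgeR log2 changes with an adjusted p under 0.05.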

How the data were processed

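Per the labels' protocols, RNA of the 13 sorted samples was isolated by RNeasy Micro columns, and stranded total RNA libraries were built with a low-input SMARTer kit. Alignment with STAR 2.6.1d on build GRCm38.p6 is named in the submitters' processing notes. The authors deposited raw read counts per gene symbol, without normalization. The counting tool, annotation, strand setting and handling of reads with several alignments were not given in the sources used here, so genes with close copies or antisense partners are uncertain.

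CPM of a library used trimmed mean of M values (TMM) factors over the 13 libraries. Low counts were removed with filterByExpr (counts of at least 10, totals of at least 15), and the rest tested with edgeR 4.0.16 robust quasi-likelihood tests in R 4.3.3, two-sided, with Benjamini-Hochberg adjustment over all genes and a threshold of 0.05. The fit of VQ, tVk12653, V and WT had 11 units, with recipients of a VQ line summed because they share a tumour. For D1 against D5 the fit held the 13 libraries singly, with a mean for each group. Standard errors are the log2 change divided by the square root of the F statistic. The members and gene lists were chosen with earlier results of these data known. Per-library values were given for the 5 largest called changes per direction against WT (4 for D1 against D5) and for Eif4e, Eif4a1, Eif4ebp1, Eif2s1 and Eif5a; up to 3 called genes were named per pathway list.

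Levels per kilobase used the exon union of GENCODE M21 on GRCm38, in place of the planned RefSeq exon union. Promoter windows and chromosomes came from RefSeq GRCm38.p6, which matched 22000 of 22997 symbols and all 47 members. Libraries of 1 group differed by a chi-square per degree of freedom of 4.97 to 14.4, so none was counted as a duplicate. Floors and counting intervals cover counting error only. Same-numbered WT and V libraries deviated together (r of 0.145 to 0.208, against -0.160 to -0.0558 for different numbers). Deviations from a group mean cancel within the group, so the second range is not separate evidence. By the rule used the first range pairs them, though the sample titles give only a replicate number. A fit with that block was an alternative. Other alternatives were relative log expression factors, total counts alone, no filter or a minimum count of 30, DESeq2 1.42.0, 2 arms alone, all libraries with 1 mean per group, tVk12653 recipients summed, and fits without 1 library or 1 VQ line. WT replicate 2 and VQ D1 replicate 1 left out together was chosen after seeing the data. The tests were also run on simulated counts, drawn independently for each sample. That check does not cover recipients sharing a tumour line, libraries that deviate together or RNA of other cell types.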

Additional observations from a re-analysis of the deposited data

Results flagged for a closer look

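Differences between groups that passed edgeR's test of the difference itself are listed here as log2 values, since VQ against tVk12653 is also the difference of their changes from WT, and D1 against D5 the difference of the lines' changes. In VQ against tVk12653 these were Eif4ebp1 (1.499), Eif2b3 (1.16), Eif5a (0.98) and Eif3i (0.72). Of all genes tested there, 5.97% were higher and 4.19% lower, and none of these initiation factors passed with relative log expression factors.

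In D1 against D5, 21.7% of all genes tested were lower in D1 and 20.0% higher (41.7% together). Of the initiator tRNA and eIF2B genes, 6 of 10 were lower in D1: Eif2a by -2.26, Eif2b4 by -1.56, Eif2b1 by -1.49, Eif2s1 by -0.64, Eif2d by -0.54 and Eif2b5 by -0.39. The eIF3 subunits Eif3b (-1.46), Eif3a (-0.71), Eif3d (-0.65), Eif3m (-0.51), Eif3g (-0.35) and Eif3l (-0.34) were lower as well. Of the cap-binding and helicase genes, Eif4h (-1.74), Eif4g1 (-0.83), Eif4e3 (-0.79), Eif4a2 (-0.78), Eif4a3 (-0.69), Eif4a1 (-0.60), Eif4b (-0.59) and Eif4e2 (-0.42) were lower and Eif4g3 (0.91) was higher. Of the genes grouped under scanning and joining, Eif1ad (-1.09), Eif5b (-0.66) and Eif1ax (-0.64) were lower and Eif1 (0.43) was higher. Of the eIF4E inhibitors, Eif4ebp1 (-1.05) was lower and Eif4ebp2 (0.49) higher. Both eIF5A genes were lower, Eif5a by -0.63 and Eif5a2 by -5.47, a fitted value that rests on 1 count in D1.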

How the results depend on the processing

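No initiation factor that passed in a comparison changed direction in any alternative, and V against WT called none in all 15 alternatives, with or without the replicate block. In fits of 2 arms alone the counts were 19 in VQ against WT (29 as reported), 10 in VQ against V (24), 23 in tVk12653 against WT (13), 26 in tVk12653 against V (6) and 0 in VQ against tVk12653 (4). With all libraries and 1 mean per group, tVk12653 had 24 calls against WT and 28 against V, and VQ 25 against tVk12653; adding the replicate block gave 24, 25 and 27, although their numbers do not pair these groups. With the tVk12653 recipients summed these counts were 3, 3 and 0. DESeq2 gave 12 in tVk12653 against V and 8 in VQ against tVk12653. For VQ against tVk12653, relative log expression factors gave 1 (lower, and none of the 4) and no filter gave 1. With total counts alone, tVk12653 against V had 9 higher and 0 lower, and the median over all genes in D1 against D5 was 0.17 in place of 0.05. Leaving out 1 library or line gave 19 to 32 calls in VQ against WT, 15 to 27 in VQ against V, 3 to 8 in tVk12653 against WT, 2 to 4 in tVk12653 against V, 0 to 11 in VQ against tVk12653 and 17 to 21 in D1 against D5; fewer samples were fitted in these, and otherwise the cause was not tested. Genes that had not passed changed sign in a few settings. In tVk12653 against WT, Eif4e had 0.0882 with the replicate block, 0.0231 with recipients summed and -0.245 to 0.142 with 1 library left out (0.0162 and 0.124 without WT replicate 2 or 3), and Eif4ebp1 -0.298 to 0.106 (0.0306 without tVk12653 replicate 2). In V against WT, with 1 library left out, Eif4e had -0.0286 to 0.333 and Eif4a1 -0.301 to 0.143. Depth limits Eif5a2 most, with 1 count in D1 and none in tVk12653.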
